A study of Mus musculus with 88 samples.

Results

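The comparison described here set the hearts of dKO mice against the hearts of HET mice when both genotypes had been given the lipid-lowering drug probucol in the diet. It used 28 of the 88 arrays of the series, 20 of dKO and 8 of HET hearts, chosen by the genotype, diet and age given in their titles. The dKO group (SR-BI-/- apoE-/-) lacked both the scavenger receptor SR-BI, encoded by Scarb1, and apolipoprotein E. The HET group (SR-BI+/- apoE-/-) kept a single working copy of Scarb1 and also lacked apolipoprotein E, so that loss of apolipoprotein E and the drug were common to both groups and the state of Scarb1 was the difference. Each array held the whole heart of 1 mouse. There were 6 dKO and 3 HET mice of 21 days, 8 dKO and 3 HET mice of 31 days, and 6 dKO and 2 HET mice of 43 days. The remaining 60 arrays came from 32 dKO and 28 HET mice of the same ages on chow, and they entered only where the genotype difference on probucol was set beside the one on chow. The deletion was present in the whole body, so hearts of dKO mice carried it in every cell type, and a whole heart holds muscle, vessel, stromal, blood and immune cells; fewer cells of a type and less RNA per cell cannot be told apart.

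SR-BI is the receptor through which liver and steroid-producing cells take up cholesteryl ester from high-density lipoprotein. Mice without SR-BI and apolipoprotein E develop occlusive coronary disease and heart failure early in life, and probucol, an antioxidant drug that also alters lipoprotein cholesterol, is known to delay this disease and to extend their survival. When cells hold excess sterol, oxysterols activate the liver X receptors (LXR), which raise cholesterol exporters such as Abca1 and lipid synthesis genes such as Srebf1 and the stearoyl-CoA desaturases. Glucocorticoids act through another nuclear receptor, whose well-known heart-expressed targets include Ddit4, Fkbp5 and Per1.

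LXR binds a direct repeat of a hexamer spaced by 4 bases, and LXR targets are among the genes described below. The promoters of Abca1 and Srebf1 are printed here, chosen because their unadjusted p in limma was below 0.05 in the pooled comparison. Those of other LXR targets were not examined gene by gene. For the LXR targets Scd1 and Scd2 no promoter entry was available. The promoter table gave Abca1 at chr4:53159846-53160145 and Srebf1 at chr11:60210422-60210721, both on the minus strand of GRCm38.p6 and both credited to RefSeq. Each sequence runs 5′ to 3′ from 250 bases before to 50 bases after a gene start, and capitals mark the match to 2 copies of the hexamer NGGTNA in the same orientation with 4 bases between them, searched on both strands and found on the strand opposite to the one printed.
Abca1: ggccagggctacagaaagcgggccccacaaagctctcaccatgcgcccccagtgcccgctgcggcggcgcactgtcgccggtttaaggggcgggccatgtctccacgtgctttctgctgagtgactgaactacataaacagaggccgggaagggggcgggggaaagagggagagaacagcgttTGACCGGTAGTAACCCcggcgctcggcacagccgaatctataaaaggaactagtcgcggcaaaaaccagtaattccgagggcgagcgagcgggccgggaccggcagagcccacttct
Srebf1: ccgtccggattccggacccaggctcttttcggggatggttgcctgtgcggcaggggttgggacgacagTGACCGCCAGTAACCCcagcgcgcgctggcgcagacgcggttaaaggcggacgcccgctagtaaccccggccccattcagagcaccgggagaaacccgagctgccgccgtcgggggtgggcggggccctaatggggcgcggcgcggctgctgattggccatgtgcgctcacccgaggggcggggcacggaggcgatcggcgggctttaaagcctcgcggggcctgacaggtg
The matches began at -67 and -182 relative to the gene start. The same letters were found in 236 of 32851 promoters of this length (0.718%), and a match is a description of the sequence, not a site at which binding was measured. As the 2 genes were chosen by their values, that share is no test of enrichment. Srebf1 has 2 other promoters in the table, and neither held a match.

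Signals were deposited on a linear scale; here they were raised to a floor of 4.22 signal units, the 10th percentile of all values, and put on the log2 scale, and each array was centred on its own median. The median signal of an array before centring was 32.6 to 49.9 in dKO hearts and 29.8 to 50.8 in HET hearts, and the number of arrays, 8 in the smaller group, limited the precision. Heart muscle identity was clear on every array: the cardiac troponin T gene Tnnt2 lay between 12.22 and 13.08 in dKO hearts and between 12.17 and 13.16 in HET hearts on the centred log2 scale. A higher Eif2s3y than Xist signal, the pattern of a male mouse, was present in 6 of 20 dKO and 4 of 8 HET arrays. It was spread unevenly over the ages of HET mice: dKO mice had 1 of 6 at 21 days, 3 of 8 at 31 days and 2 of 6 at 43 days, against 0 of 3, 2 of 3 and 2 of 2 in HET mice, so sex and age cannot be told apart in HET mice at 21 and 43 days.

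With ages pooled and age as a covariate, 4 of 5683 tested genes (0.0704%) passed an adjusted p of 0.05 in limma with Benjamini-Hochberg adjustment over all tested genes. Of these, Epha8 and Scd2 were higher in dKO hearts, and Scarb1 and Ddit4 were lower. At an unadjusted p below 0.05 there were 361 genes (6.35%), 181 higher and 180 lower in dKO hearts. The median standard error of a difference was 0.137 on the log2 scale, and for 5398 of the 5683 tested genes the 95% confidence interval of the difference lay inside 1 log2 unit in either direction. A 1.5-fold difference in either direction was outside the interval for 73.6% of tested genes. Differences above 1 log2 unit were found for 5 genes, of which 2 passed the test. Nothing in the labels says that mice of a group came from separate litters, and the p-values measure the spread between these mice.

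Scarb1, the targeted gene, had log2 signals of 5.43 (lowest), 6.54 (median) and 6.99 (highest) over the 20 dKO arrays, and of 7.09, 7.53, 7.33, 7.67, 7.39, 7.33, 7.53 and 7.66 on the 8 HET arrays. Every HET array lay above every dKO array. The fitted difference, dKO minus HET, was -1.00 ± 0.13 (SE; adjusted p = 1.08e-04 in limma), a signal 2.01-fold lower in dKO hearts. Scarb1 was the only 1 of the 5683 tested genes whose arrays did not overlap between the genotypes with lower values in dKO hearts (0.0176%), and 0 genes had non-overlapping arrays with higher values. The difference was -0.94 at 21 days, -0.89 at 31 days and -1.25 at 43 days. A difference was present at each age, yet none of these single-age values passed the adjustment over all genes (adjusted p = 0.25, 0.37 and 0.091 in limma). At 43 days it passed with all 88 arrays in 1 fit (adjusted p = 0.00414) and with arrays not centred (adjusted p = 0.0394). The sources used here do not say which stretch of Scarb1 its probe set covers, so the remaining signal in dKO hearts cannot be read as expression of an intact gene. Apoe, deleted in both groups, was near the floor and too dim to be tested, with log2 signals on its brighter probe set between 2.35 and 3.79 in dKO hearts and between 2.61 and 3.80 in HET hearts.

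Ddit4, which encodes a stress-induced and glucocorticoid-induced inhibitor of mTORC1 signalling, had log2 signals of 5.55 (lowest), 6.96 (median) and 7.95 (highest) in dKO hearts. In HET hearts it had 8.25, 8.82 and 8.57 at 21 days, 7.40, 7.37 and 7.78 at 31 days, and 8.22 and 8.45 at 43 days. The groups overlapped over ages, but within each age every HET array lay above every dKO array. The difference was -1.12 ± 0.19 (SE; adjusted p = 0.00789 in limma), a signal 2.17-fold lower in dKO hearts. It was of like size at each age, at -1.12 at 21 days, -1.04 at 31 days and -1.22 at 43 days. Ddit4 passed the threshold in every fit that left out 1 of the 28 arrays, with a difference between -1.17 and -1.05. Without the age term the adjusted p was 0.09 in limma.

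Epha8, which encodes an Eph receptor tyrosine kinase known from axon guidance, had log2 signals of 5.40 (lowest), 5.83 (median) and 6.30 (highest) in dKO hearts. It had 5.31, 5.51, 5.03, 5.58, 4.73, 4.41, 4.48 and 5.81 on the 8 HET arrays. On 5 of the 8 HET arrays it lay below the lowest dKO array, and the other 3 overlapped with dKO arrays. The difference was 0.79 ± 0.15 (SE; adjusted p = 0.0259 in limma), a signal 1.72-fold higher in dKO hearts. The gene was dim, with a mean log2 signal of 5.66 over the 28 arrays, close to the median of an array. The adjusted p of Epha8 was 0.068 without HETp_21d replicate 3, 0.060 without HETp_31d replicate 2, 0.117 without HETp_31d replicate 3 and 0.140 without HETp_43d replicate 1.

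Scd2, a stearoyl-CoA desaturase that makes monounsaturated fatty acids and an LXR and SREBP target, had log2 signals of 8.41 (lowest), 8.86 (median) and 9.58 (highest) in dKO hearts. The HET arrays had 8.96, 8.81 and 8.42 at 21 days, 8.36, 8.41 and 8.39 at 31 days and 8.43 and 8.19 at 43 days. At 31 and 43 days every HET array lay below every dKO array, and at 21 days the highest HET array lay above the lowest dKO array. The difference was 0.43 ± 0.09 (SE; adjusted p = 0.0259 in limma), a signal 1.35-fold higher in dKO hearts, and a second probe set of Scd2 gave 0.40. The adjusted p of Scd2 passed 0.05 in 22 of the 28 fits that left out 1 array. It was 0.051 without dKOp_21d replicate 4, 0.080 without HETp_21d replicate 3, 0.063 without HETp_31d replicate 1, 0.055 without HETp_31d replicate 3, 0.051 without HETp_43d replicate 1 and 0.132 without HETp_43d replicate 2.

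**Figure D1:**
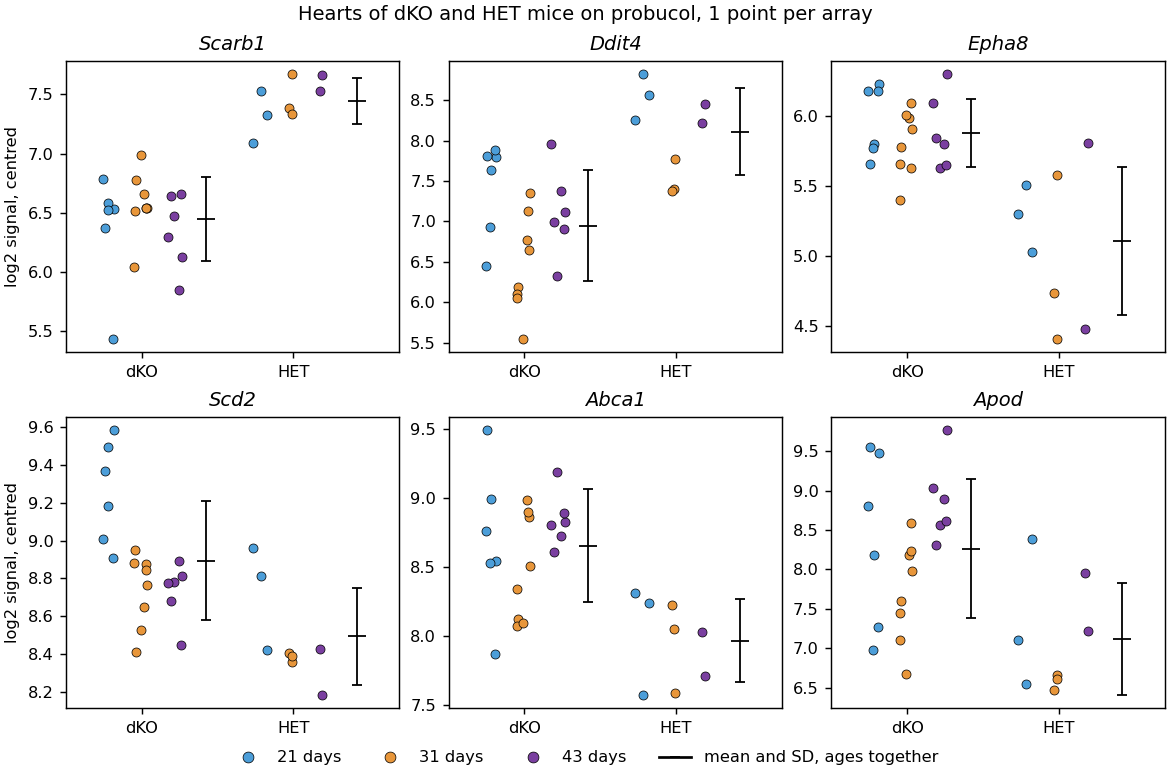
Centred log2 signal (vertical axis) of Scarb1, Ddit4, Epha8, Scd2, Abca1 and Apod on each of the 20 dKO and 8 HET arrays on probucol, 1 point per array, coloured by age, with the mean and SD over all arrays of a genotype. Scarb1 is the gene whose dKO and HET points do not overlap, and Abca1 and Apod, which missed the threshold, are higher in dKO hearts with overlap.

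The genes next in order of p were Ivns1abp, Abca1, Errfi1, Apod and Srebf1, a choice made after their values were seen. Ivns1abp, which encodes a kelch-family actin-binding protein, had 8.87 (lowest), 9.41 (median) and 9.99 (highest) in dKO hearts and 8.81, 9.09 and 9.26 in HET hearts, a difference of 0.38 ± 0.08 (SE; adjusted p = 0.0528 in limma). The dKO median lay above the highest HET array, with overlap at the low end. It passed the threshold in 3 of 22 alternative settings and in 6 of the 28 fits that left out 1 array. Over the 28 fits its adjusted p ran between 0.00988 and 0.267. The 6 were the fits without dKOp_21d replicate 2, dKOp_31d replicates 2, 4 and 6, and HETp_21d replicates 1 and 2.

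Abca1, the exporter that loads cellular cholesterol onto apolipoprotein A-I and whose promoter is printed above, had log2 signals of 7.87 (lowest), 8.74 (median) and 9.50 (highest) in dKO hearts. The 8 HET arrays had 8.31, 7.57, 8.24, 8.05, 8.22, 7.59, 8.03 and 7.71. The dKO median was above the highest HET array, and at 43 days all dKO arrays lay above both HET arrays. The difference was 0.69 ± 0.15 (SE; adjusted p = 0.0559 in limma), and the second probe set of Abca1 gave 0.64. The value lay just outside the threshold and crossed it in 5 of 22 alternative settings, among them the mean of the gene's probe sets (adjusted p = 0.00521), and in 6 of the 28 fits that left out 1 array. Over those 28 fits the adjusted p ran between 0.0102 and 0.321. The 6 were the fits without dKOp_21d replicate 3, dKOp_31d replicates 3, 4 and 6, HETp_21d replicate 1 and HETp_31d replicate 2.

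Srebf1, the transcription factor that drives fatty acid synthesis genes, had 8.01 (lowest), 8.43 (median) and 9.00 (highest) in dKO hearts and 7.72, 8.08 and 8.38 in HET hearts. The dKO median was above the highest HET value, with overlap. The difference was 0.36 ± 0.09 (SE; adjusted p = 0.162 in limma), and its adjusted p was 0.0259 without dKOp_21d replicate 3. Apod, a lipocalin that binds small lipids and is raised in stressed tissue, had 6.68 (lowest), 8.27 (median) and 9.77 (highest) in dKO hearts and 6.48, 6.89 and 8.39 in HET hearts. The spread within each genotype was more than 3 times that of Srebf1, at SDs of 0.88 and 0.71 against 0.27 and 0.23. The Apod difference was 1.14 ± 0.27 (SE; adjusted p = 0.155 in limma), and its adjusted p was 0.0378 without dKOp_21d replicate 6.

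**Figure D2:**
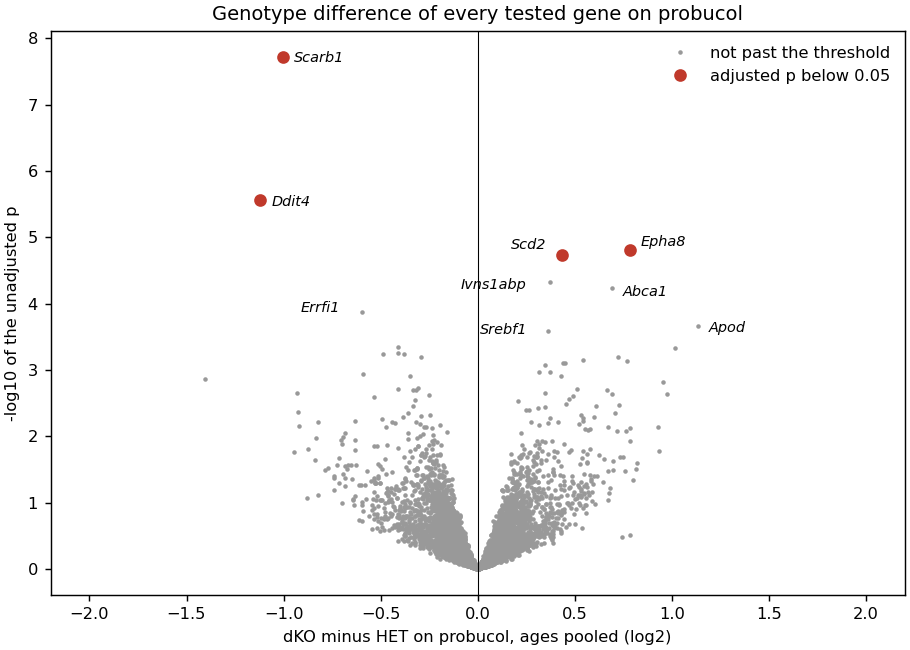
Difference in log2 signal, dKO minus HET on probucol with ages pooled (horizontal axis), against the -log10 of its unadjusted p (vertical axis), 1 point for each of the 5683 tested genes. The 4 genes past the adjusted threshold are the larger points, 2 on each side of 0.

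Of the list of cholesterol efflux and LXR target genes, 14 were tested and 1, Scd2, was called, as higher in dKO hearts. The list's median difference was 0.15, beside a median of 0.00 over all tested genes, and 11 of its 14 genes had a positive difference. At an unadjusted p below 0.05 there were 4 higher and 0 lower, Scd2, Abca1, Srebf1 and Scd1, beside 3.18% of all tested genes that were higher by that rule. Scd1, a second stearoyl-CoA desaturase, had a difference of 0.39 ± 0.18 (SE; adjusted p = 0.762 in limma). By age the list's median was 0.43 at 21 days, -0.01 at 31 days and 0.11 at 43 days. Of the sterol synthesis and LDL uptake genes, which fall when cells are sterol-replete, 7 were tested and 0 were called by limma, with 0 also at an unadjusted p below 0.05 and a median of -0.02. Fdps and Nsdhl, enzymes of the cholesterol pathway, had the smallest p of that list, with differences of -0.15 and -0.10.

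Of the list of glucocorticoid-responsive genes, 19 were tested, 1 was called as lower in dKO hearts (Ddit4) and 0 as higher. A further 6 were lower at an unadjusted p below 0.05, making 7 of 19, beside 3.17% of all tested genes. Over the fits that left out 1 array this count ran from 3 to 9, with 3 without HETp_21d replicate 2, 3 without HETp_21d replicate 3 and 4 without HETp_31d replicate 1. The list's median was -0.22 and 3 of 19 differences were positive, beside 48.8% of all tested genes. Leaving out single arrays moved the median between -0.29 and -0.16. By age the median was -0.38 at 21 days, -0.20 at 31 days and -0.10 at 43 days, with 0, 6 and 8 of 19 positive. At these ages 60.1%, 48.5% and 47.4% of all tested genes were negative. The 6 were Errfi1, a feedback inhibitor of the EGF receptor (-0.60), Fkbp5, which binds the glucocorticoid receptor complex (-0.92), Per1, a clock gene (-0.49), Cdkn1a, a cell cycle inhibitor (-0.68), Cebpd, a transcription factor (-0.37), and Map3k6, a stress kinase (-0.74). Errfi1 had 6.43 (lowest), 7.11 (median) and 7.99 (highest) in dKO hearts and 6.91, 7.66 and 8.36 in HET hearts, and its adjusted p was 0.109 in limma, 0.0389 without HETp_21d replicate 1 and 0.0144 without HETp_31d replicate 2. Fkbp5 had 4.14, 5.70 and 6.98 in dKO hearts and 5.52, 6.69 and 8.06 in HET hearts, with an adjusted p of 0.508. In both genes the medians differed and the ranges overlapped widely. The labels used here give no time of day of collection, so its part in these values was not tested.

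Of the macrophage list, 23 genes were tested and 0 were called by limma. At an unadjusted p below 0.05, 1 was lower, beside 3.17% of all tested genes, and the median was -0.07. Without HETp_21d replicate 3 the median was 0.02, the lower genes were 0 and the negative differences were 9, against 14 with all arrays; without HETp_21d replicate 1 the lower genes were 3. Laptm5, a lysosomal membrane protein of leukocytes, had 7.42 (lowest), 7.77 (median) and 8.24 (highest) in dKO hearts and 7.84, 7.99 and 8.79 in HET hearts, a difference of -0.27 ± 0.11 (SE; adjusted p = 0.679 in limma). C1qa, a complement subunit made by macrophages, had a difference of -0.16. Without HETp_21d replicate 3 the differences of Laptm5 and C1qa were -0.18 and -0.06. The values of both genotypes overlapped in each.

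Of the extracellular matrix list, 28 genes were tested and 0 were called by limma. At an unadjusted p below 0.05, 2 were lower, beside 3.17% of all tested genes, and the median was -0.07. Over the 28 fits that left out 1 array the count of lower genes ran from 0 to 8 and differed by over 1.5 times from 2 in 19 of them; it was 8, with a median of -0.11, without HETp_21d replicate 3. The 2 with the smallest p were Col4a1, a basement membrane collagen (-0.28), and Eln, elastin (-0.26). Of a separate list, matrix proteases and their inhibitors, 8 genes were tested and 0 were called by limma. Timp1 and Plat had its smallest p, and 1, Timp1, was lower at an unadjusted p below 0.05. Timp1, a protease inhibitor that rises with tissue injury, had 5.63 (lowest), 7.46 (median) and 8.46 (highest) in dKO hearts and 7.64, 7.81 and 8.41 in HET hearts. Its dKO values reached far below the HET range, and its difference was -0.68 ± 0.24 (SE; adjusted p = 0.546 in limma). Plat, tissue plasminogen activator, had 0.16.

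Of the fatty acid oxidation list, 24 genes were tested and 0 were called by limma. At an unadjusted p below 0.05, 3 were higher and 1 lower, beside 3.18% and 3.17% of all tested genes. In the list 21 differences were positive, beside 48.8% positive over all tested genes, and its median was 0.07. By age 9 of 24 were positive at 21 days, 21 at 31 days and 18 at 43 days, with medians of -0.06, 0.11 and 0.14. Over all tested genes 60.1%, 48.5% and 47.4% were negative at these ages. The median deviation of the list's genes from their group means had an SD of 0.14 over the arrays. The higher genes were 5 without HETp_21d replicate 1 and 1 without HETp_21d replicate 2. Acadm, the medium-chain acyl-CoA dehydrogenase, had 10.28 (lowest), 11.19 (median) and 11.60 (highest) in dKO hearts and 10.25, 10.63 and 11.31 in HET hearts, a difference of 0.37 ± 0.12 (SE; adjusted p = 0.489 in limma). Acadl, the long-chain enzyme, had 0.32. Of 29 citrate cycle and respiratory chain genes 0 were called and 1 was higher at an unadjusted p below 0.05, with a median of 0.05; the higher genes ran from 0 to 5 over the fits that left out 1 array, with 5 without HETp_21d replicate 1. The 2 with the smallest p were Ndufs1, a complex I subunit (0.17), and Suclg1, a subunit of succinyl-CoA ligase (0.13).

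Of the cardiac stress and fetal gene list, 16 were tested and 0 were called by limma, and the median was -0.04. At an unadjusted p below 0.05, 1 was higher, beside 3.18% of all tested genes. That gene was Fhl1, a LIM protein that senses stretch in heart muscle, with 8.69 (lowest), 9.17 (median) and 9.48 (highest) in dKO hearts and 8.35, 8.87 and 9.03 in HET hearts, a difference of 0.32 ± 0.09 (SE; adjusted p = 0.264 in limma). The dKO median lay above the highest HET value. Rcan1, a calcineurin-induced gene, had -0.33. Of 19 sarcomere genes 0 were called and 2 were higher at an unadjusted p below 0.05, Tpm2, which is described by age below, and Myom1, an M-band protein (0.22). Of 9 calcium handling and ion channel genes 0 were called and 1 was higher at an unadjusted p below 0.05. Gja1, the gap junction protein connexin 43 (0.23), and Slc8a1, the sodium-calcium exchanger (0.20), had the smallest p.

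Other stress lists held single genes with small unadjusted p and no called gene in limma. Over all tested genes 3.18% were higher and 3.17% lower at an unadjusted p below 0.05. The count of immediate early genes given next ran from 1 to 3 over the 28 fits that left out 1 array. Of 17 immediate early genes 2 were higher at an unadjusted p below 0.05: Klf4, a transcription factor of vessel cells and macrophages (0.44 ± 0.12, SE; adjusted p = 0.226 in limma), and Ier3 (0.31). Of 18 heat shock genes 1 was lower, the small heat shock protein Hspb8 (-0.29 ± 0.08, SE; adjusted p = 0.226 in limma), and 1 was higher, Hspa1b, an inducible Hsp70 (0.58). Of 21 genes of the unfolded protein and amino acid response 1 was higher, Dnajb9 (0.49), and 1 was lower, the mitochondrial folate enzyme Mthfd2 (-0.82). Of 31 antioxidant genes 1 was higher, the epoxide hydrolase Ephx1 (0.64), and Gsr, glutathione reductase, had 0.21. Actn3 and Atp2a1, fast skeletal muscle genes, had -0.65 and -0.67, and 2 of 11 skeletal muscle genes were lower at an unadjusted p below 0.05. For each of these genes the dKO and HET arrays overlapped.

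Among the remaining blood and immune lists, 0 of 9 neutrophil and mast cell genes, 0 of 6 lymphocyte genes, 0 of 15 chemokine and cytokine genes, 0 of 20 S100, annexin and galectin genes and 0 of 11 erythroid genes were called by limma. At an unadjusted p below 0.05, where 3.17% of all tested genes were lower, there were 1, 0, 1, 2 and 0 genes, all lower in dKO hearts. They were Csf3r, the G-CSF receptor (-0.63), Cxcl14, a chemokine (-0.72), Lgals3bp, a secreted galectin ligand (-0.49), and Lgals9, a galectin (-0.46). Cd79a, a B cell receptor component, had 0.34, and the haemoglobin gene Hbb-b2 had 0.23. Of 16 cell cycle genes 0 were called by limma, and the median was -0.20 with 2 positive differences. At an unadjusted p below 0.05, 1 was lower, the cell cycle inhibitor Cdkn1a, which was also counted in the glucocorticoid list. The median was -0.11 without HETp_31d replicate 3 and lay between -0.30 and -0.08 over all settings, and the count was 0 without HETp_21d replicate 3, HETp_31d replicate 1 or HETp_43d replicate 2 and 2 without dKOp_21d replicate 3 or HETp_43d replicate 1. The scavenger receptor list held 1 called gene, Scarb1 itself, and the lists not named here, apart from the sex check, had 0 called genes with medians between -0.08 and 0.12.

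The medians of the interferon-induced and MHC lists moved toward 0 when 1 HET array was left out. Of 21 interferon-induced genes 0 were called by limma and 3 were lower at an unadjusted p below 0.05 (3.17% of all tested genes), with a median of -0.41. The count was 1 without that array, HETp_21d replicate 3, 1 without dKOp_21d replicate 3 or HETp_31d replicate 1, 5 without HETp_21d replicate 1 or 2 or HETp_43d replicate 2, and 7 without HETp_31d replicate 3. Of 9 MHC class I genes 0 were called and 1 was lower, with a median of -0.41; of 8 MHC class II genes 0 were called and 0 had an unadjusted p below 0.05, with a median of -0.33. H2-K1, an MHC class I heavy chain, lay between 9.23 and 10.75 in dKO hearts, and between 9.86 and 10.65 on 7 HET arrays, while HETp_21d replicate 3 had 13.01. Without that array the medians were -0.13 for interferon-induced genes, -0.06 for MHC class I and 0.03 for MHC class II. Tapbp, which loads peptide onto MHC class I, had 9.54 on the same array and 7.32 to 7.82 on the other HET arrays. Isg20, an interferon-induced exonuclease, had a difference of -0.77 and Mx2, an antiviral GTPase, -0.44. H2-DMa, which edits peptides on MHC class II, had -0.50.

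**Figure D3:**
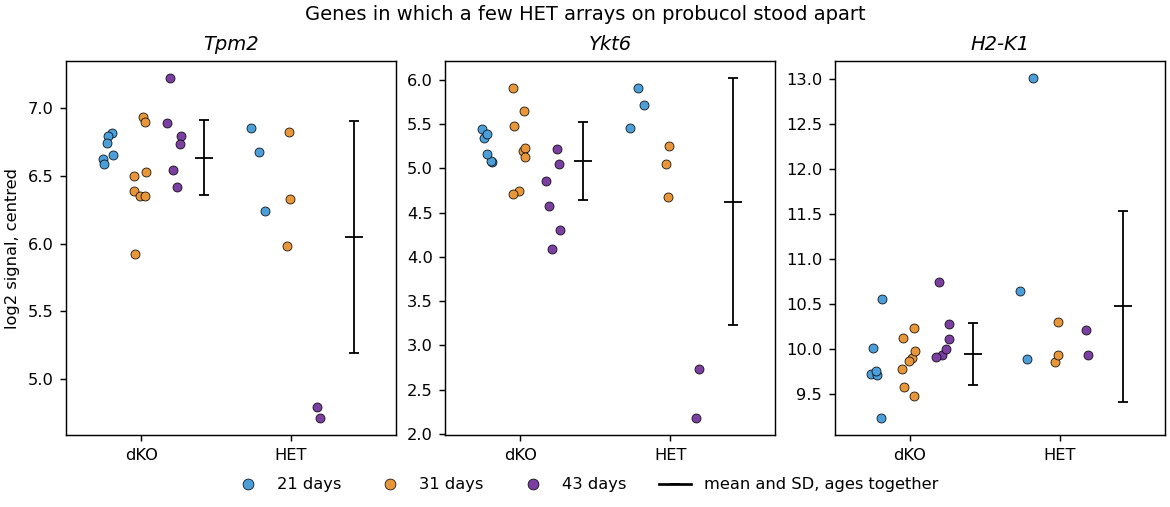
Centred log2 signal (vertical axis) of Tpm2, Ykt6 and H2-K1 on each dKO and HET array on probucol, 1 point per array, coloured by age, with the mean and SD over all arrays of a genotype. Both HET arrays of 43 days are low for Tpm2 and Ykt6, and 1 HET array of 21 days is high for H2-K1.

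Fitted age by age, 0 genes were called by limma at 21 days and 0 at 31 days (0% each), and 2 genes were called at 43 days (0.0352%). At an unadjusted p below 0.05 there were 351 genes (6.18%) at 21 days, 233 (4.1%) at 31 days and 446 (7.85%) at 43 days. Without HETp_21d replicate 1 there were 5 called genes at 21 days and without HETp_21d replicate 2 there were 3, and without HETp_31d replicate 3 there was 1 at 31 days. Leaving out 1 HET array of 43 days leaves 1 HET mouse at that age, so counts of those fits are not given. The sexes read from Eif2s3y and Xist differed between the HET ages as given above, and with that contrast as a covariate both genes called at 43 days passed. With it 1 gene was called for a change between any ages, against 2 without it. The male pattern was on 2 of 2 HET arrays at 43 days and 0 of 3 at 21 days. The covariate cannot separate sex from age in HET mice at these ages.

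The 2 genes called at 43 days were Tpm2, a tropomyosin, and Ykt6, a SNARE protein of vesicle transport. Tpm2 had log2 signals of 6.42 (lowest), 6.77 (median) and 7.22 (highest) in dKO hearts at 43 days and 4.80 and 4.71 in HET hearts of that age. Both HET arrays lay below all other arrays on probucol, where the lowest was 5.92. The difference at 43 days was 2.01 (adjusted p = 1.78e-05 in limma), against 0.11 at 21 days and 0.11 at 31 days. The change in the difference between 21 and 43 days was 1.90 (adjusted p = 0.00785 in limma), and its adjusted p was 0.0683 without HETp_43d replicate 2. A second probe set of Tpm2, too dim to pass the filter, had 3.73 to 5.73 in dKO hearts of 43 days and 5.81 and 5.68 on the same 2 HET arrays, so it did not show the low HET values.

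Ykt6 had 4.09 (lowest), 4.71 (median) and 5.22 (highest) in dKO hearts at 43 days and 2.18 and 2.73 in HET hearts of that age. The HET values were near the floor, and values as low as 1.95 in dKO hearts at 43 days and 2.45 in HET hearts at 31 days were present on chow. The difference was 2.23 at 43 days (adjusted p = 0.00156 in limma), -0.44 at 21 days and 0.26 at 31 days. It was 0.71 at 43 days with a higher floor, the 30th percentile, and the adjusted p was then 0.585. With all 88 arrays in 1 fit the adjusted p of Ykt6 was 0.110 at 43 days and 0.522 for its change from 21 days. The same 2 genes were called for a change in the difference from 21 to 43 days (0.0352%), and for any change between the 3 ages (0.0352%).

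On chow, 2569 of the 5683 genes (45.2%) were called between dKO and HET hearts in a fit of 12 group means on all 88 arrays, 1062 higher (18.7%) and 1507 lower (26.5%) in dKO hearts. In that form of fit the probucol comparison had 3 called genes with ages weighted by precision (Abca1, Ddit4 and Scarb1) and 4 with ages weighted equally (Tpm2 in addition). Scd2 and Epha8 were not called there, with adjusted p of 0.263 and 0.294 in limma by precision and 0.231 and 0.319 with equal weights. With arrays not centred the chow calls were 1757 higher and 711 lower, where the median of all genes was 0.10, against -0.05 after centring. The chow comparison rested on 60 arrays and a smaller median standard error than the probucol comparison (0.137 on probucol, against 0.0950 on chow), so the counts of the diets are not a test of their difference. The difference between the genotype differences, probucol minus chow, was therefore fitted directly, and 1110 genes (19.5%) were called, 617 (10.9%) with a higher and 493 (8.67%) with a lower value on probucol. With arrays not centred those were 305 and 764. At 43 days 1070 genes (18.8%) were called for that difference, at 31 days 458 (8.06%) and at 21 days 42 (0.739%). Only 2 HET arrays on probucol stand behind the value at 43 days. The diets' comparisons shared no arrays. Chow values and probucol minus chow values with ages pooled were means of the 3 ages with equal weight. The pooled probucol values came from the 28 arrays with age as a covariate. The fitted probucol minus chow values are therefore not exact subtractions of the values printed for each diet.

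The 1062 genes that were higher in dKO hearts on chow had a median difference of -0.03 on probucol, against 0.47 on chow. Of these genes 44.0% had the same sign on probucol, and 48.8% of all tested genes had a positive difference on probucol. The 1507 genes that were lower on chow had a median of 0.01 on probucol, against -0.36 on chow, with 46.4% of the same sign. Of the 119 genes at least 2-fold higher on chow, the median was -0.01 on probucol and 1.38 on chow, and for 118 of them the 95% interval of the probucol difference did not include the chow value. Of the 20 genes at least 2-fold lower on chow, the median was 0.08 on probucol and -1.13 on chow, and for 19 the interval did not include the chow value. These intervals leave out the error of the chow value. Fitted directly, probucol minus chow was called for 111 of the 119 genes and 16 of the 20, beside 19.5% of all tested genes. Across the 5683 genes, which are not independent replicates, Pearson's r between the differences on probucol and on chow was -0.06. Genes were chosen for these sets by their chow values, which draws their chow medians away from 0 and favours called differences between the diets.

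**Figure D4:**
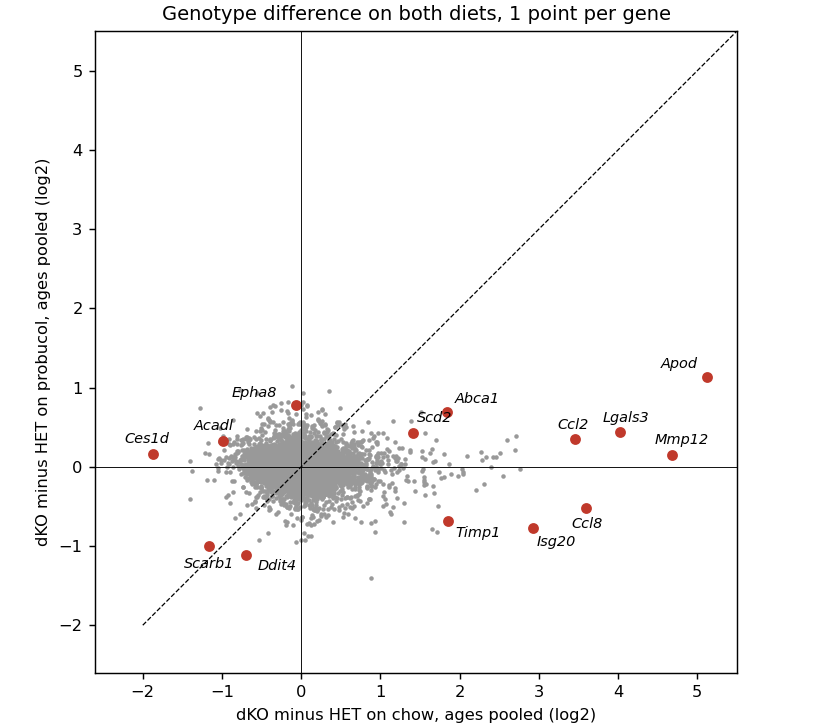
Difference in log2 signal, dKO minus HET with ages pooled, on probucol (vertical axis) and on chow (horizontal axis), 1 point per tested gene, with equal differences on the dashed line. Chow values weight the ages equally, and probucol values come from the fit with age as a covariate. Mmp12, at 4.69 on chow, lies at 0.15 on probucol, while Scarb1 lies near the dashed line at -1.00 on probucol and -1.16 on chow.

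Of the 4 genes called on probucol, Scarb1 and Ddit4 were also called as lower on chow and Scd2 as higher. Scarb1 differed by -1.00 on probucol and -1.16 on chow, and its probucol minus chow value of 0.13 had an interval of -0.16 to 0.42 (adjusted p = 0.594 in limma). Ddit4 differed by -1.12 on probucol and -0.69 on chow, and its probucol minus chow value of -0.44 had an interval of -0.99 to 0.11 (adjusted p = 0.279 in limma). Scd2 differed by 0.43 on probucol and 1.42 on chow, a probucol minus chow value of -0.98 (adjusted p = 7.06e-08 in limma). Its mean log2 signal was 8.89 in dKO hearts and 8.50 in HET hearts on probucol, against 9.27 in dKO hearts and 7.87 in HET hearts on chow, so the HET level on probucol was the higher of the HET levels. Epha8 differed by 0.79 on probucol and -0.06 on chow and had a probucol minus chow value of 0.84 (adjusted p = 0.0181 in limma), which was 0.68 with arrays not centred (adjusted p = 0.116) and 0.62 without HETp_43d replicate 1 (adjusted p = 0.145).

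On probucol 1 of 14 genes of the LXR list was called as higher in dKO hearts (0.0352% of all tested genes) with a median of 0.15, against 13 (18.7% of all tested genes) with a median of 0.91 on chow. For 8 the difference was called as lower on probucol, beside 8.67% of all tested genes. Abca1 had a mean of 8.66 in dKO hearts and 7.96 in HET hearts on probucol, and of 9.18 in dKO hearts and 7.32 in HET hearts on chow, a probucol minus chow value of -1.12 (adjusted p = 6.71e-07 in limma). Srebf1 had 8.47 and 8.12 on probucol in dKO and HET hearts, and 8.38 and 7.49 on chow, a value of -0.55 (adjusted p = 0.00837 in limma). In both genes the HET mean on probucol was above the HET mean on chow. Scd1 had a value of -0.53 that did not pass (adjusted p = 0.108 in limma), and it passed with arrays not centred (-0.69, adjusted p = 0.0306), with quantile normalization (-0.59, adjusted p = 0.0473) and with the mean of its probe sets (-0.73, adjusted p = 0.0439).

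The genes with the largest rise in dKO hearts on chow were Apod, the macrophage elastase Mmp12, the macrophage lectin Lgals3 and the monocyte chemokines Ccl8 and Ccl2. On probucol their differences were 1.14, 0.15, 0.44, -0.52 and 0.35 in that order, against 5.13, 4.69, 4.03, 3.59 and 3.46 on chow. For each of these genes the probucol minus chow value passed the test, at -3.98, -4.62, -3.53, -4.14 and -3.11. Mmp12 on probucol lay between 2.47 and 5.74 in dKO hearts and between 2.05 and 5.22 in HET hearts, against 4.49 to 10.57 in dKO hearts on chow. The 95% interval of its difference on probucol, -0.78 to 1.07, was wide, as the gene was dim in both genotypes there. Lox, a collagen cross-linking enzyme, and Serpina3n, an acute phase protease inhibitor, were among the genes with the most negative probucol minus chow values at 43 days, at -5.01 and -4.69, and had -2.46 and -2.56 with ages pooled.

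The genes with the largest fall in dKO hearts on chow included Ces1d, a carboxylesterase, the water channel Aqp1, Lamb3, a laminin chain, and Zbtb16, a glucocorticoid-induced transcription factor. On probucol these differed by 0.16, 0.07, -0.41 and -0.06 in that order, against -1.87, -1.41, -1.40 and -1.38 on chow. The probucol minus chow value passed the test for Ces1d (2.05), Aqp1 (1.47) and Zbtb16 (1.36), and for Lamb3 it was 0.98 (adjusted p = 0.0737 in limma). Among genes with the largest positive values were also Gsta4, a glutathione transferase (1.52), and Sprr2d, an epithelial envelope protein (1.61).

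By list, the distance between diets was widest for macrophage genes, with a median of -0.07 on probucol and 1.42 on chow, where 22 of 23 were called as higher, and for 19 the difference between diets was called. Lysosomal genes had a median of -0.05 on probucol and 0.72 on chow, with 18 of 23 called for the difference. Extracellular matrix genes had -0.07 on probucol and 0.41 on chow, with 15 of 28 lower and 1 higher on probucol. Fatty acid oxidation genes had 0.07 on probucol and -0.59 on chow, with 19 of 24 called for the difference, all with a higher value on probucol. Citrate cycle and respiratory chain genes had 0.05 on probucol and -0.50 on chow, with 24 of 29 called. Over all tested genes the medians were 0.00 on probucol and -0.05 on chow, and 19.5% were called for the difference. The glucocorticoid list had -0.22 on probucol and -0.15 on chow, with 2 genes higher and 3 lower on probucol for the difference.

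**Figure D5:**
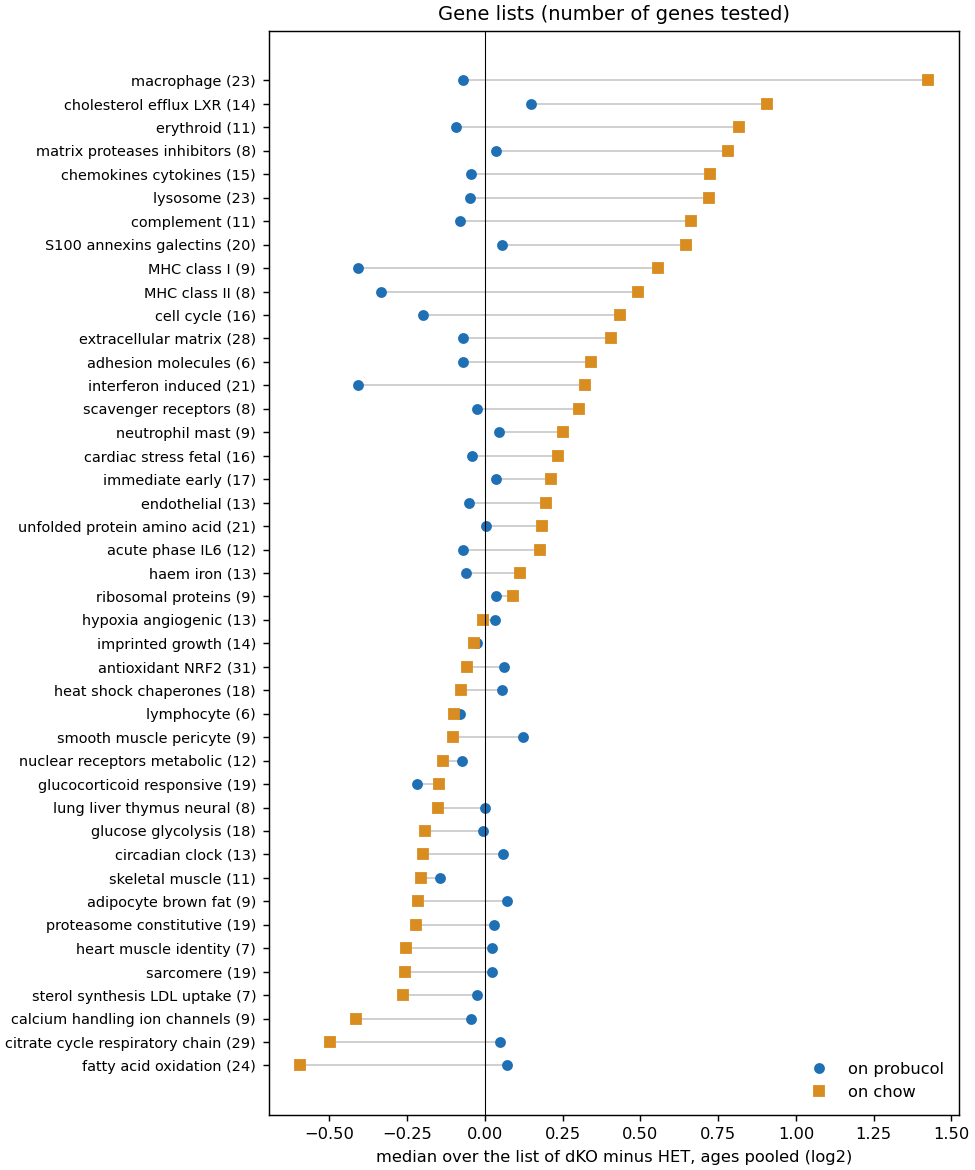
Median over the tested genes of each list, the sex check with 1 tested gene left out, of the log2 difference dKO minus HET with ages pooled (horizontal axis), on probucol (circles) and on chow (squares), with lists ordered by the chow value and the number of tested genes in brackets. The probucol medians lie between -0.41 and 0.15, and the chow medians between -0.59 and 1.42.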

How the data were processed

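Whole-heart RNA of 88 mice was measured, 1 mouse per array. The authors deposited linear signal intensities for 12488 probe sets; MAS5 is named in the submitters' processing notes, and the scaling of the arrays was not given in the sources used here. Here signals were floored at 4.22 units, put on the log2 scale and centred on each array's median, with the mean array median added back. Probe sets with 1 gene symbol in the platform annotation (10833, against 396 with several) were used. The upper 60% by mean over all 88 arrays, chow arrays included, were kept. The probe set brightest over the same 88 arrays stood for a gene, which left 5683 genes. limma 3.58.1 in R 4.3.3 (lmFit, eBayes with an intensity trend) fitted genotype with age as a covariate on 28 arrays, 6 group means for single ages, and 12 group means on 88 arrays for chow and diet differences, with Benjamini-Hochberg adjustment over all genes and a threshold of 0.05. The code was tested on simulated data. The array label of 1 dKO chow mouse carries conflicting ages, and its title was followed.

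The comparison, its 44 gene lists and its tests were chosen with earlier results of these data known. Genes named were the targeted genes, all called genes of the pooled comparison, of each list up to 4 called members or the 2 with the smallest p, and the 5 largest called rises and falls elsewhere; further genes were chosen after their values were seen, as stated. Not every gene this rule gives is described. Replicate numbers recur between groups. The deviations of same-numbered dKO and HET arrays from their group means correlated at -0.12 to 0.11, and 1 of 8 correlated best with its own number. The numbers were not used to pair mice in the main fits. With only 2 or 3 HET arrays at each age behind the group means, this check cannot exclude a pairing. Alternatives covered floor, scaling, filter, probe sets, array weights, covariates and omitted arrays.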

Additional observations from a re-analysis of the deposited data

Results flagged for a closer look

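In 22 of 272 groups of arrays tested over the 68 named genes (8.09%), 1 array stood apart by Dixon's criterion, the gap to its nearest neighbour over the group's range. Chance gives about 1 in 20 groups. HETp_21d replicate 3, taken over all 8 HET arrays, was the highest for H2-K1 (gap 0.749), Tapbp (0.773) and Laptm5 (0.582) and the lowest for Cd79a (0.590). Of the other HET arrays, HETp_21d replicate 1 was low for Serpina3n (0.783), HETp_31d replicate 2 was low for Gsr (0.537), and HETp_43d replicate 1 was high for Ephx1 (0.600). Among dKO arrays of 21 days, replicate 3 was low for Scarb1 (0.696), Isg20 (0.629) and Sprr2d (0.715), replicate 4 was low for Eln (0.684) and high for Ccl8 (0.871), replicate 2 was low for Ivns1abp (0.750), and replicate 5 was low for Mthfd2 (0.661). Among those of 31 days, replicate 6 was low for Errfi1 (0.539), replicate 5 for Ndufs1 (0.585), replicate 8 for Mx2 (0.542) and replicate 4 for Ces1d (0.646). Among those of 43 days, replicate 1 was high for Rcan1 (0.683), replicate 4 was low for Lgals3bp (0.659), and replicate 2 was high for Lamb3 (0.681) and low for Lox (0.630). 

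The dKO minus HET difference on probucol changed between 21 and 43 days for Tpm2 (1.90) and Ykt6 (2.67) and passed the test over the 3 ages; only 2 HET arrays of 43 days stand behind both.

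The genotype difference itself differed between diets, probucol minus chow, for 45 of the 68 named genes, beside 19.5% of all tested genes. Some of the 68 were named because this difference, or the one on chow, was large. The count was therefore shaped by that choice and is not a result about these genes. Among lipid and stress genes the values were -0.98 for Scd2, -1.12 for Abca1, -0.55 for Srebf1, -3.98 for Apod, -0.89 for Errfi1, -1.62 for Cdkn1a, -0.61 for Ier3, 0.72 for Dnajb9, -1.77 for Mthfd2, 1.22 for Ephx1, 1.52 for Gsta4, 1.36 for Zbtb16 and 2.05 for Ces1d. Among heart muscle and energy genes they were 0.98 for Acadm, 1.30 for Acadl, 0.76 for Ndufs1, 0.66 for Suclg1, -0.58 for Rcan1, 0.70 for Myom1, 0.45 for Gja1, 0.89 for Tpm2 and 0.35 for Tnnt2. Among matrix and vessel genes they were -0.64 for Col4a1, -0.72 for Eln, -2.54 for Timp1, -0.63 for Plat, -2.46 for Lox and 1.47 for Aqp1. Among blood and immune genes they were -1.45 for Laptm5, -1.08 for C1qa, 1.11 for Cd79a, -3.65 for Isg20, -1.03 for H2-K1, -0.69 for Tapbp, -1.07 for H2-DMa, -1.52 for Lgals3bp, -1.10 for Lgals9, -1.00 for Hbb-b2, -4.62 for Mmp12, -3.53 for Lgals3, -4.14 for Ccl8, -3.11 for Ccl2 and -2.56 for Serpina3n. Epha8 had 0.84 and Sprr2d 1.61. H2-DMa lost its call with the mean of its probe sets and without HETp_21d replicate 3, HETp_31d replicate 2 or HETp_43d replicate 1, Tnnt2 with quantile normalization, with no filter on dim probe sets and without HETp_21d replicate 3 or HETp_43d replicate 2, Rcan1 without HETp_21d replicate 2 or HETp_43d replicate 1, Ephx1 without HETp_43d replicate 2, Epha8 without HETp_43d replicate 1, and Ier3 with no filter, with the sex contrast as a covariate and without any 1 of 6 HET arrays. With arrays not centred, the calls of Dnajb9, Epha8 and Gja1 were lost.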

How the results depend on the processing

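The pooled count of 4 called genes was 3 to 6 under 16 of 22 alternatives. Scarb1 was called under 20 of them, Ddit4 under 17, Epha8 under 13 and Scd2 under 12. The count was 2 without the age term (Epha8 and Scarb1), 1 with treat at a minimum of 1.2-fold (Scarb1), 1 without the arrays of 21 days, 0 without those of 31 days and 1 without those of 43 days, which leave fewer arrays, and it ran from 2 to 8 when single arrays were left out (8 without HETp_21d replicate 1; 2 without HETp_21d replicate 3, HETp_31d replicate 3 or HETp_43d replicate 1). Without the arrays of 31 days Scarb1 had an adjusted p of 0.058. With a random replicate block the count was 4, and with a fixed replicate block over the 8 same-numbered pairs it was 1 (Ddit4). The random replicate block moved no other count by over 1.5 times, with 1126 for probucol minus chow. At 21 days the count of 0 became 3 with all 88 arrays in 1 fit (H2-Bl, H2-K1 and Scarb1) and ran from 0 to 5 without single HET arrays; at 31 days it ran from 0 to 1. At 43 days the count of 2 was 1 with the higher floor, 1 with the upper 40% of probe sets and 4 with array weights, and ran from 2 to 47 without single HET arrays. The change from 21 to 43 days was called for 1 gene with arrays not centred, with the higher floor, with the upper 40% and with all 88 arrays, and its count also moved without single HET arrays. The change between any ages was called for 1 gene in these first 3 settings and with the sex contrast as covariate, and for 1 to 9 without single HET arrays. Counts for chow stayed between 2047 and 3177. With arrays not centred, probucol minus chow at 43 days had 309 higher and 726 lower values, against 667 and 403. Counts for probucol minus chow were 777 to 1106 with ages pooled and 517 to 1069 at 43 days without single HET arrays. The cause of these changes was not tested, except that leaving out arrays leaves fewer samples. No called difference of the 68 named genes changed sign in the pooled comparison under the 22 alternatives and 28 fits without 1 array: of 3383 values 60 changed side of the threshold, 25 into and 35 out of it, and 19 values of 8 genes turned sign without being called in either fit. The median of the smooth muscle list was 0.12 with all arrays and -0.05 without HETp_21d replicate 3. Counts of 0 to 2 list members at an unadjusted p below 0.05 also moved by over 1.5 times in many of the fits without 1 array. The actin ratio covariate, the list medians and counts without single arrays, the lists without HETp_21d replicate 3 and the diet differences at 21 and 31 days were chosen after seeing the data. The 8 HET arrays limit the precision.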
